A study of Rattus norvegicus with 4 samples.

Results

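The aquaporins are a family of membrane channels, and 10 of them were followed here in the uterus of the pregnant rat before implantation: Aqp1 to Aqp9 and Aqp11. They were taken by gene symbol, as probe sets that the platform annotation assigns to exactly 1 gene. Each of the 10 had 1 such probe set, among 18166 genes tested. The list was drawn up with earlier results of these data known, so counts of members cannot be weighed against the shares of all genes. The samples were uteri of Sprague Dawley rats 10 to 12 weeks old, taken on day 5 of pregnancy and measured as total RNA on 4 Affymetrix whole-transcript arrays. On day 1, rats of the ormeloxifene group (2 arrays) were fed that drug in gum acacia at 1.25 mg per kg, which the study calls a contraceptive dose, and rats of the vehicle group (2 arrays) received gum acacia alone. Ormeloxifene is an oral contraceptive that is not a steroid; it binds oestrogen receptors and acts with or against oestrogen depending on the tissue. The comparison asks which aquaporin transcripts differed in the uterus 4 days after that single dose.

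Aquaporins form tetramers in which every subunit has its own pore, and they let water follow the osmotic gradients that ion transport sets up. A subgroup, the aquaglyceroporins, also passes glycerol. In the rodent uterus oestrogen draws water into the tissue and the lumen, and around implantation luminal fluid is taken up again so that the uterine walls close on the embryo; aquaporins of the epithelium, stroma and vessels are known there for their response to ovarian steroids.

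Values are log2 signals after quantile normalization over the 4 arrays, and a difference is ormeloxifene minus vehicle on the log2 scale with its standard error (SE) from limma. Groups are given as mean ± SD with n = 2. The sources used here do not say if each array's RNA came from a single rat or a pool; p-values measure the spread between the labelled biological replicates. The deposited values of arrays with the same replicate number were exactly equal at 488 probe sets (number 1) and 551 (number 2), and at 0 between any other arrays. Same-numbered arrays were taken for this reason as processed together, and differences within each number stand beside the pooled ones. Tissue markers were as labelled: Hoxd10 gave 9.28 to 9.71, Esr1 9.30 to 9.77 and Pgr 8.70 to 9.15 over the 4 arrays.

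Aqp8 showed the largest difference of the family, higher with ormeloxifene, and Aqp5 the next largest, lower with ormeloxifene. Aqp9 was higher by a smaller amount, and the other 7 members differed by 0.34 at most, in either direction. None of the 10 passed an adjusted p under 0.05 by limma, where 0 of all 18166 genes did (0%). At an unadjusted p under 0.05 stood 2 of the 10, against 2.20% of all genes: Aqp8 higher, as 1.12% of all genes were, and Aqp5 lower, as 1.08% were. With 1 array left out, the difference of Aqp5 ran from -1.03 to -0.34 and that of Aqp9 from 0.31 to 0.71. An absolute difference of at least 0.5 was seen in 3 of the 10 and in 3.63% of all genes. In sign, 6 members were higher and 4 lower, at a median of 0.08; over all genes 53.4% were higher and 46.6% lower, at a median of 0.02.

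**Figure D1:**
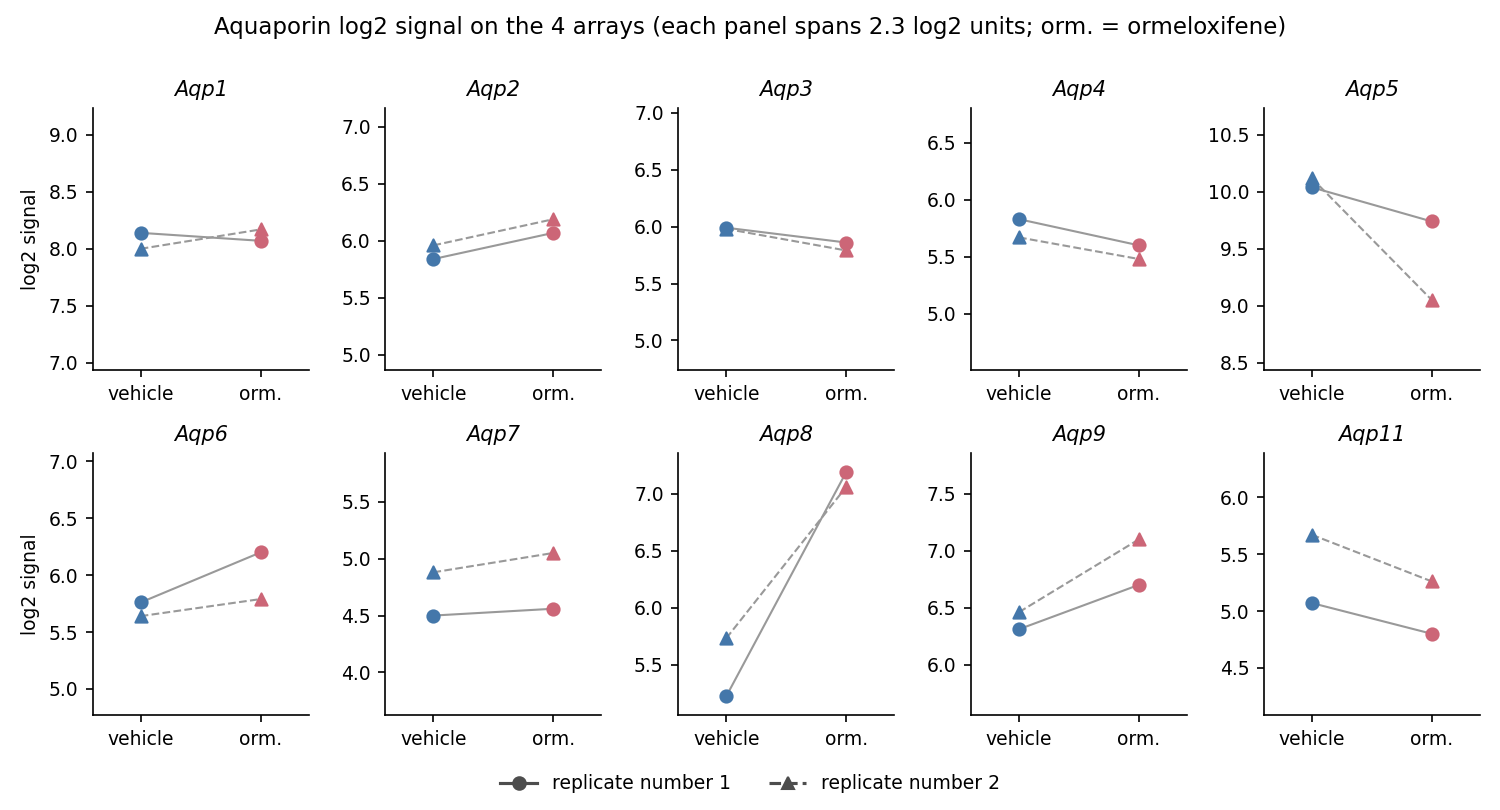
Log2 signal of each aquaporin on the 4 arrays, with vehicle at left and ormeloxifene (orm.) at right of each panel; circles are replicate number 1, triangles number 2, and lines join arrays of the same number. All panels span the same range, and only in Aqp8 do the groups lie more than 1 log2 unit apart, from 5.22 and 5.73 to 7.19 and 7.06.

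Aqp8 encodes a channel that passes water and also ammonia and hydrogen peroxide, known from the colon, pancreas, liver and testis. Its signal was 5.22 and 5.73 on the vehicle arrays and 7.19 and 7.06 on the ormeloxifene arrays. Both ormeloxifene values lay above both vehicle values, and the ormeloxifene arrays differed from each other by 0.13 while the vehicle arrays differed by 0.51. The group means were 5.48 ± 0.36 and 7.13 ± 0.10, a difference of 1.65 (SE 0.24), or 3.14-fold, with a 95% interval from 2.12-fold to 4.65-fold. That placed Aqp8 in the 4th place among all genes ordered from highest to lowest difference. By limma the unadjusted p was 0.000180 and the adjusted p 0.468. As deposited, the vehicle values of Aqp8 were 5.18 and 5.78, below the medians of all probe sets on those arrays, 5.72 and 5.84. Signal over background was not used, so how far these vehicle values, and with them the fold, stand clear of background is not known. As these are whole uteri, more cells that express a gene and more RNA per cell cannot be told apart, for Aqp8 or any gene below.

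Within number 1 Aqp8 was higher by 1.97 and within number 2 by 1.33. With the number as a block the adjusted p was 0.0627, and 0 of the 10 aquaporins passed, as did 0.0275% of all genes. The block on deposited values gave 3.12e-06, with 1 of the 10 and 0.462% of all genes past the threshold, but that fit had 39.6 degrees of freedom after moderation, almost all of them borrowed from other genes, and so called genes mainly by size. Over the 12 alternatives the difference ran from 1.39 without vehicle replicate 1 to 1.91 without vehicle replicate 2, and the adjusted p from 3.12e-06 to 1.00.

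Markers of organs in which Aqp8 is abundant were read on the same arrays. Of 5 liver markers measured 3 were higher and 2 lower, with mean signals of 6.01 and 5.86 on the ormeloxifene arrays and 6.30 and 5.99 on the vehicle arrays. Albumin (Alb), the main plasma protein made by the liver, gave 8.61 and 8.50 with vehicle and 7.29 and 7.14 with ormeloxifene. Its groups lay 1.21 apart, and its difference of -1.34 (SE 0.21; adjusted p = 0.564 by limma, and 0.0627 blocked by number) was opposite in sign to that of Aqp8 and stood in the 7th place from the lowest of all genes. Pancreatic markers gave 5.42 and 5.42 against 5.23 and 5.53 (5 of 5 measured, 3 higher). For the colon the means were 5.69 and 5.69 against 5.85 and 5.59 (4 of 5 measured, 2 higher). Their part in the difference of Aqp8 was not tested.

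Aqp5 is the channel through which glands of the salivary, lacrimal and airway epithelium secrete water, and in the rodent uterus it is known from the epithelium. Its signal was 10.04 and 10.12 on the vehicle arrays and 9.74 and 9.05 on the ormeloxifene arrays. Both ormeloxifene values were below both vehicle values, and they lay 0.69 apart from each other, as far as the group means did. The means were 10.08 ± 0.05 and 9.39 ± 0.48, a difference of -0.68 (SE 0.27) with a 95% interval from -1.31 to -0.06, or 1.61-fold lower. By limma the unadjusted p was 0.0360 and the adjusted p 1.00; the block by number gave 0.0118 and 0.598. After quantile normalization the size rested on ormeloxifene replicate 2, with -0.34 without it and -1.03 without ormeloxifene replicate 1. That depended on the scaling. The values as deposited were 9.84 and 10.36 with vehicle and 9.47 and 9.29 with ormeloxifene. There the vehicle arrays lay further apart than the ormeloxifene arrays. Within number 1 the difference was -0.30 and within number 2 -1.06, against -0.36 and -1.08 as deposited.

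Epithelial markers are given beside Aqp5. Of 11 markers 7 were lower and 4 higher, at a median of -0.14, and 0 had an unadjusted p under 0.05. Their mean signal was 7.36 and 7.45 on the ormeloxifene arrays and 7.37 and 7.64 on the vehicle arrays, so the groups overlapped. Within number 1 their median difference was -0.02 and within number 2 -0.26; Aqp5 too was lower by more within number 2. The keratins Krt7 (-0.45), Krt18 (-0.40) and Krt8 (-0.25) were lower and Krt19 (0.19) higher, each with overlapping groups. Krt7 had an unadjusted p of 0.0345 by limma when blocked by number. Krt8 had its lowest value, 6.28, on ormeloxifene replicate 2, as Aqp5 had. Krt7 (6.14) and Krt18 (6.33) were lowest on ormeloxifene replicate 1, and Krt19 (8.11) on vehicle replicate 2. Unlike Aqp5, Krt18 was at -0.86 within number 1 and 0.05 within number 2. The adhesion molecule Epcam differed by -0.02, the junction protein Cldn3 by 0.10 and the glandular transcription factor Foxa2 by -0.21. The remaining markers were Cdh1 (0.24) and Cldn4 (0.10), which were higher, and Cldn7 (-0.20) and Muc1 (-0.14), which were lower. Their part in the difference of Aqp5 was not tested.

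The stretches of the genome just before Aqp8 and Aqp5 are shown because these are the members with the smallest p-values, in opposite directions. They are RefSeq sequences of build GRCr8, plus strand, 5′ to 3′, and end at the base before the first base of the gene's RefSeq record. For Aqp5 that is also the start site on which its promoter window is set; the Aqp8 record begins earlier, so the Aqp8 stretch stops 129 bases short of the start site of its window and leaves out an E-box at position -98 from that site. Capitals mark matches on either strand to a set of short motifs that was searched: the oestrogen response element GGTCANNNTGACC and its arm GGTCA, the arm TGTTCT of the progesterone and glucocorticoid receptor element, the AP-1 site TGANTCA, the Sp1 site GGGCGG, the TATA box TATAAA, the cAMP response element TGACGTCA and the E-box CACGTG. The E-box was added after the sequences had been seen. The Aqp8 stretch is chr1:187424193-187424313 and the Aqp5 stretch is chr7:132601278-132601527.
Aqp8: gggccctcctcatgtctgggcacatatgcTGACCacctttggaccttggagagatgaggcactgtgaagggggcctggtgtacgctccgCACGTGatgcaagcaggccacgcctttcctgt
Aqp5: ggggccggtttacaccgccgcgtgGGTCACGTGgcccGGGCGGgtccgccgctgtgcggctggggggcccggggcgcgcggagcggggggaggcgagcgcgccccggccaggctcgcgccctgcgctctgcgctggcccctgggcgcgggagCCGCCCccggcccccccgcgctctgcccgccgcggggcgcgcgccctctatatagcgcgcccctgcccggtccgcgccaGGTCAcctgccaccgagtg
In the Aqp8 stretch the capitals are an oestrogen element arm on the minus strand and an E-box. In Aqp5 the first run of capitals is such an arm overlapping an E-box; Sp1 matches follow on either strand, and another arm lies close to the start. Aqp5 is set in a window of 82.3% G and C, at the 99.7th percentile of all promoter windows, and Aqp8 in one of 53.7%.

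RefSeq held promoter windows of 300 bases, 250 before and 50 after a start site, for 9 of the 10 aquaporins (10 windows, since Aqp4 has 2), among 33469 windows of all genes. The arm GGTCA was found in the windows of Aqp5, Aqp8 and Aqp11, and in 40.5% of all windows. The full oestrogen response element was in 0 of the 10 and in 0.0269% of all. The E-box was in the windows of Aqp2, Aqp5, Aqp6 and Aqp8, the last with 2 of them, and in 6.42% of all windows. As it was added after the sequences had been seen, its count cannot be weighed against that share. Its part in the differences of these genes was not tested. Sp1 matches were in the windows of 5 aquaporins (33.1% of all), the TATA box in those of Aqp1 and Aqp3 (14.2%) and the arm TGTTCT in those of Aqp2 and Aqp9 (20.7%). The AP-1 site (7.33% of all) and the cAMP response element (1.83%) were in 0 of the 10. These matches are descriptions of letters in a window.

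Among the other water channels, Aqp1, the channel of red cells and of capillary endothelium, was all but level. Its signal was 8.14 on vehicle replicate 1, with vehicle replicate 2 lying 0.13 below it, and 8.07 and 8.17 with ormeloxifene. The groups overlapped, and the difference was 0.05 (SE 0.21) with a 95% interval from -0.43 to 0.53, which admits changes of up to 1.44-fold upward. Within number 1 it was -0.07 and within number 2 0.17. Of 6 endothelial markers measured 5 were higher and 1 lower, at a median of 0.18, with means of 7.58 and 7.65 against 7.36 and 7.52 with vehicle. Erythroid markers were higher in 4 of 4 measured, at a median of 0.09, and their means with ormeloxifene (4.87 and 5.20) overlapped those with vehicle (4.77 and 5.10).

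Aqp2, Aqp5 and Aqp6 lie next to each other, in this order and with 0 other coding genes between them in the GRCr8 annotation. Aqp2 is the vasopressin-regulated channel of the renal collecting duct. It gave 5.84 and 5.96 with vehicle and 6.07 and 6.19 with ormeloxifene. The groups did not overlap, and the difference of 0.23 (SE 0.21; 95% interval -0.25 to 0.71) was the same within number 1 and number 2, at 0.23 each. Aqp6, a channel of intracellular vesicles that also conducts anions, gave 5.76 and 5.64 with vehicle and 6.20 and 5.79 with ormeloxifene. Here too the groups did not overlap, but ormeloxifene replicate 2 lay 0.04 above the higher vehicle array.

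The difference of Aqp6 was 0.30 (SE 0.23; 95% interval -0.24 to 0.83), with 0.09 without ormeloxifene replicate 1 and 0.50 without ormeloxifene replicate 2. So within the cluster Aqp5 was lower and both neighbours were higher, none past the adjusted threshold; the contrast between the 3 genes was not tested. The genes that flank the cluster were near 0: Faim2, an inhibitor of Fas-mediated cell death, at 0.04 (SE 0.24), and Racgap1, which acts in cell division, at -0.10 (SE 0.25). Both changed sign without vehicle replicate 2, to -0.18 and 0.19.

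Aqp4, best known from the end feet of brain astrocytes, gave 5.83 and 5.67 with vehicle and 5.60 and 5.48 with ormeloxifene. The groups did not overlap, with a gap of 0.06 between the nearest arrays. The difference was -0.21 (SE 0.21; 95% interval -0.69 to 0.28), with -0.22 within number 1 and -0.19 within number 2, and it was -0.13 without vehicle replicate 1. Aqp8 itself is flanked by Lcmt1, a methyltransferase that acts on protein phosphatase 2A, and the zinc finger gene Zkscan2. Lcmt1 differed by 0.23 (SE 0.22) and Zkscan2 by -0.29 (SE 0.26), and the groups overlapped in both.

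**Figure D2:**
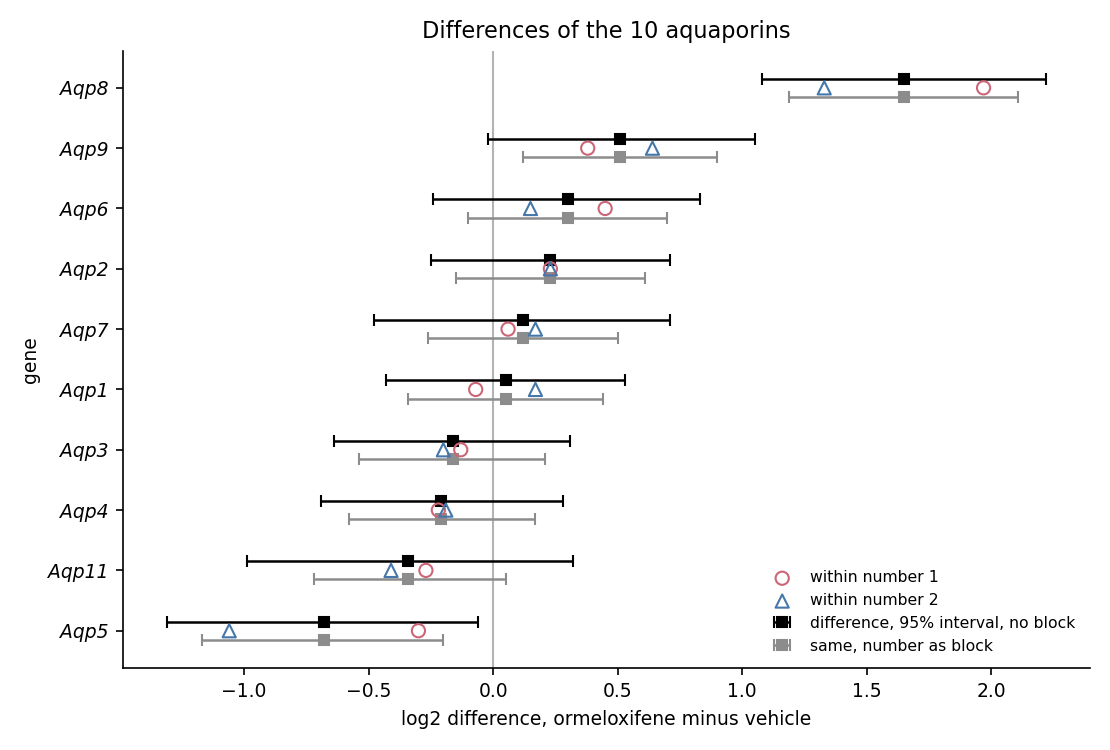
Log2 difference (ormeloxifene minus vehicle) of each aquaporin: squares with bars are the difference with its 95% interval from limma without (black) and with (grey) the replicate number as a block, and open symbols are differences within each number. Without the block the intervals of Aqp8 (1.08 to 2.22) and Aqp5 (-1.31 to -0.06) exclude 0, and those of the other 8 members include it.

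Of the aquaglyceroporins, Aqp9, which takes up glycerol in the liver and is also made by leukocytes, was the one with the largest difference. It gave 6.31 and 6.46 with vehicle and 6.70 and 7.10 with ormeloxifene. All ormeloxifene values were above all vehicle values. The means were 6.38 ± 0.10 and 6.90 ± 0.28, a difference of 0.51 (SE 0.23; 95% interval -0.02 to 1.05), or 1.43-fold. By limma its unadjusted p was 0.0573, and 0.0164 once blocked by number, where the adjusted p was 0.629; blocked, 3 of the 10 aquaporins (Aqp5, Aqp8 and Aqp9) and 6.76% of all genes had an unadjusted p under 0.05. Within number 1 the difference was 0.38 and within number 2 0.64, and it was 0.31 without ormeloxifene replicate 2.

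Neutrophil markers went both ways. Of 7 measured 4 were higher and 3 lower, at a median of 0.09. Their means were 5.19 and 5.04 with ormeloxifene and 4.97 and 5.15 with vehicle, so the groups overlapped. The granule enzymes were higher, as Aqp9 was: Mpo at 0.66, with 1.42 within number 1 and -0.11 within number 2, and Elane at 0.32. The calprotectin subunits went apart, S100a8 at 0.33 and S100a9 at -0.57 (unadjusted p = 0.0423 by limma), and the granulocyte receptor Csf3r was at -0.35. Their part in the difference of Aqp9 was not tested.

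Aqp3 and Aqp7 stand side by side in the annotation, with 0 other coding genes between them. Aqp3 is a water and glycerol channel of the basolateral membrane of many epithelia. Its signal was 5.99 and 5.98 with vehicle and 5.86 and 5.79 with ormeloxifene. The groups did not overlap and were tight, the vehicle arrays differing by 0.01, and the difference was -0.16 (SE 0.20; 95% interval -0.64 to 0.31), with -0.13 and -0.20 within the numbers. Aqp7, through which fat cells release glycerol, gave 4.50 and 4.88 with vehicle and 4.56 and 5.05 with ormeloxifene. Its probe set was dim, at the 15.2th percentile of mean signal among the genes tested.

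The 4 values of Aqp7 went by replicate number rather than by group, and the groups overlapped. The difference was 0.12 (SE 0.26; 95% interval -0.48 to 0.71), and it was -0.13 without ormeloxifene replicate 2 and -0.07 without vehicle replicate 1. Adipocyte markers were higher in 5 of 6, at a median of 0.15, with means of 5.66 and 5.55 against 5.58 and 5.33 with vehicle. The genes flanking Aqp7 and Aqp3 differed by 0.10 (SE 0.24, Nfx1, a transcription factor) and -0.12 (SE 0.20, Nol6, a nucleolar protein); Nfx1 was at -0.13 without ormeloxifene replicate 1.

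Aqp11 belongs to a divergent branch of the family and is found in the endoplasmic reticulum. Its signal was 5.07 and 5.67 with vehicle and 4.80 and 5.26 with ormeloxifene. The groups overlapped, because ormeloxifene replicate 2 lay above vehicle replicate 1, while the differences within number 1 and number 2 were -0.27 and -0.41. The difference was -0.34 (SE 0.28; 95% interval -0.99 to 0.32). Leaving out vehicle replicate 2 gave -0.03, and leaving out vehicle replicate 1 gave -0.64. Outside the 10, the lens channel Mip (Aqp0) differed by -0.00 (SE 0.23) and Aqp12a by 0.15 (SE 0.24), the latter -0.10 without ormeloxifene replicate 1.

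Over the family the groups did not overlap in 7 of 10 members, Aqp2, Aqp3, Aqp4, Aqp5, Aqp6, Aqp8 and Aqp9, against 25.7% of all genes. Of these 4 were higher with ormeloxifene (13.9% of all genes) and 3 lower (11.8%). On the values as deposited Aqp2, Aqp3 and Aqp9 overlapped, which left 4 of 10, against 17.2% of all genes. In 5 of the 10 (Aqp2, Aqp3, Aqp4, Aqp8 and Aqp9) the group difference was larger than the gap between the arrays of either group, which held for 16.0% of all genes. Membership depended on the scaling. On the values as deposited it held for Aqp4, Aqp5, Aqp6 and Aqp8 but not for Aqp2, Aqp3 and Aqp9. The share of all genes was not counted on that scale, so these members cannot be set against it. With 2 arrays a group, the smallest p that an exact 2-sided permutation test can give is 0.333. The median absolute gap between the vehicle arrays was 0.14 for the 10 aquaporins and 0.27 for all genes, and between the ormeloxifene arrays it was 0.27 and 0.23.

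**Figure D3:**
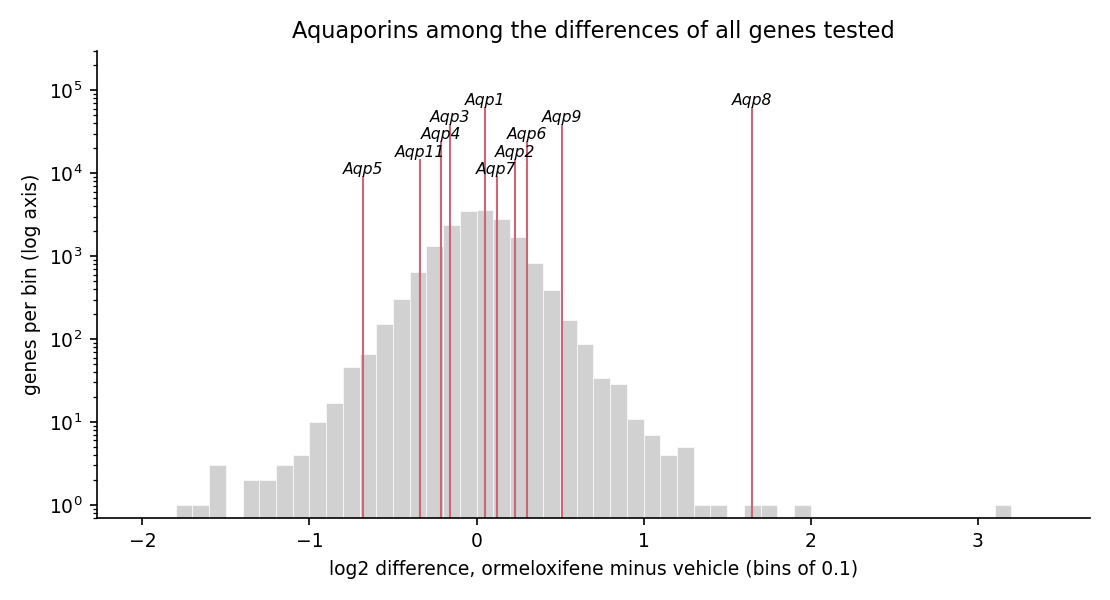
Number of genes (log axis) by log2 difference, ormeloxifene minus vehicle, in bins of 0.1 for the 18166 genes tested; vertical lines mark the aquaporins. Aqp8, at 1.65, lies far to the right among a handful of genes, Aqp5, at -0.68, on the left flank, Aqp9, at 0.51, on the right flank, and the rest nearer the centre.

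Genes that work with the aquaporins were taken from lists. Epithelial salt and fluid transport, which sets the gradient that water follows, had 35 of 38 genes measured. Of these 19 were higher and 16 lower, at a median of 0.01, and 1 had an unadjusted p under 0.05, beside 2.20% of all genes: Atp1b1, the beta subunit of the sodium pump. It gave 8.84 and 8.84 with vehicle and 9.48 and 9.42 with ormeloxifene, a difference of 0.61 (SE 0.20, unadjusted p = 0.0176 and adjusted p = 1.00 by limma). The groups lay 0.58 apart, next to replicate gaps of 0.01 and 0.05. On the values as deposited (8.59 and 9.09 with vehicle, 9.25 and 9.65 with ormeloxifene) they still did not overlap, but the replicates of each group lay further apart and the unadjusted p was 0.0878 by limma.

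The epithelial sodium channel, through which luminal sodium and with it water is absorbed, was lower in all 3 subunits. Scnn1a differed by -0.22, Scnn1b by -0.15 and Scnn1g by -0.30, each with an SE of 0.21. In each the groups did not overlap, as in 25.7% of all genes, but on the values as deposited those of Scnn1a and Scnn1b did. Scnn1a was at -0.12 without ormeloxifene replicate 2 and Scnn1b at -0.03 without ormeloxifene replicate 1. The chloride channel Cftr, which drives secretion, gave 4.79 and 5.25 with vehicle and 4.88 and 4.44 with ormeloxifene. Its difference was -0.36 (SE 0.26) with overlapping groups, at 0.09 within number 1 and -0.80 within number 2. Without vehicle replicate 2 it was -0.13. The Cftr probe set was dim, at percentile 16.6 of mean signal. None of these 4 had an unadjusted p under 0.05. The cotransporter Slc12a2 differed by 0.07 and the kinase Sgk1, which raises sodium channel activity, by -0.10; Sgk1 was at 0.02 without vehicle replicate 2.

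Of the genes of aquaporin trafficking and anchoring 29 of 33 were measured, 22 higher and 7 lower at a median of 0.11, and 0 had an unadjusted p under 0.05 by limma. The median was 0.21 within number 1 and -0.02 within number 2. Avpr2, the vasopressin receptor that sends Aqp2 to the membrane in the kidney, differed by 0.22 (SE 0.30), and by -0.21 without vehicle replicate 1. Glycerol handling genes, 12 of 12 measured, were higher in 7 and lower in 5 at a median of 0.12, again with 0 at an unadjusted p under 0.05. Glycerol kinase (Gk) differed by 0.11 (SE 0.26), and by -0.18 without vehicle replicate 1.

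**Figure D4:**
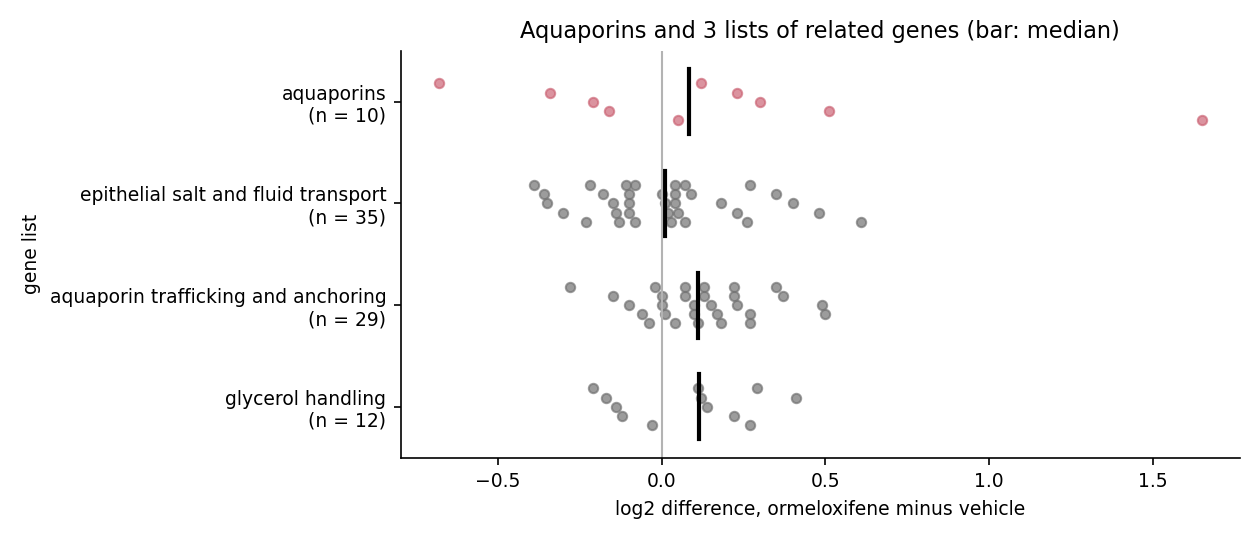
Log2 difference, ormeloxifene minus vehicle, of each aquaporin and of each gene in the 3 lists of related genes; 1 point is 1 gene and the bar is the median. The medians of the lists lie between 0.01 and 0.12, and no gene of the 3 lists reaches the 1.65 of Aqp8.

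The receptors for ovarian steroids, which control uterine aquaporins, were both lower with ormeloxifene, neither past the adjusted threshold. Esr1 was at -0.20 (SE 0.24) and Pgr at -0.25 (SE 0.22), with unadjusted p of 0.426 and 0.298 by limma. The 95% intervals ran from -0.75 to 0.35 and from -0.77 to 0.27. The groups of Esr1 overlapped. Those of Pgr did not, with a gap of 0.05, as in 25.7% of all genes. On the values as deposited (8.89 and 9.38 with vehicle, 8.86 and 8.90 with ormeloxifene) the groups of Pgr overlapped.

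Genes with a profile like that of Aqp8 were found by the Euclidean distance, in log2 units over the 4 arrays, between profiles centred on their own mean. The nearest 5 with an established symbol were the class I histocompatibility gene RT1-CE16 (0.26), Ly6i (0.39), the peptidylarginine deiminase Padi2 (0.45), the olfactory receptor gene Or2y1c (0.45) and the kainate receptor subunit Grik2 (0.53). All 5 had groups that did not overlap, as 25.7% of all genes had, with differences of 1.41, 1.29, 1.25, 1.21 and 1.70. Both traits follow from choosing genes by closeness to the Aqp8 profile. RT1-CE16 shared with Aqp8 a vehicle replicate 2 above vehicle replicate 1, by 0.65 against 0.51. The probe sets of Ly6i and Or2y1c were dim, at percentiles 9.87 and 3.14 of mean signal among the genes tested.

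The nearest to Aqp5 were the histone gene H2bcl1 (0.14), the receptor gene Gfra4 (0.19), the glucosylceramide synthase Ugcg (0.20), the mitotic kinase Ttk (0.21) and the chondroitin synthase Chsy1 (0.21). These had differences of -0.76, -0.50, -0.69, -0.54 and -0.56. In each the vehicle arrays lay close together and ormeloxifene replicate 2 was the lowest of the 4 arrays, as in Aqp5. That too follows from choosing genes by closeness to its profile. Ormeloxifene replicate 2 lay below replicate 1 by 0.40 to 0.83 in these 5 genes. The probe sets of H2bcl1 and Ttk were dim, at percentiles 14.4 and 14.3 of mean signal. With 4 arrays, many genes come close to any given profile.

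**Figure D5:**
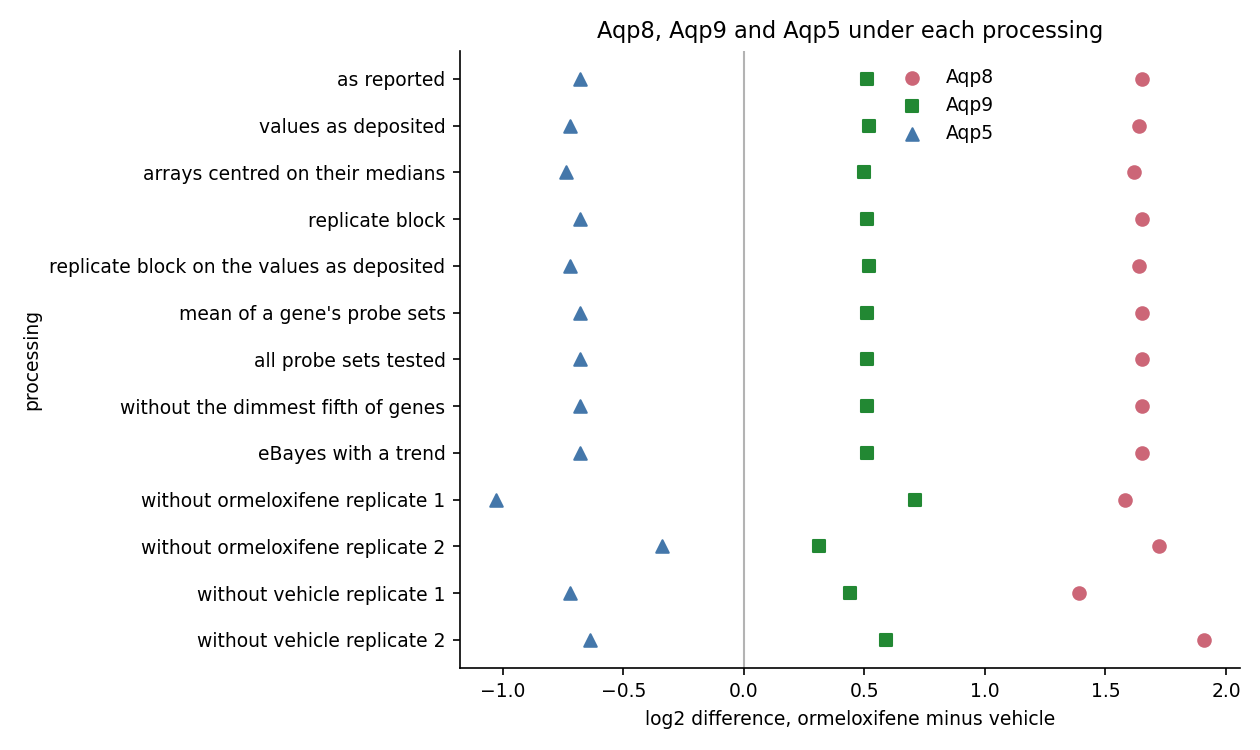
Log2 difference, ormeloxifene minus vehicle, of Aqp8 (circles), Aqp9 (squares) and Aqp5 (triangles) as reported and under each of 12 other ways of processing the values. Aqp8 stays between 1.39 and 1.91, Aqp9 between 0.31 and 0.71 and Aqp5 between -1.03 and -0.34.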

How the data were processed

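The deposited table holds 1 log2 signal per probe set and array (36685 probe sets); the authors used Affymetrix Expression Console, per the submitters' processing notes, and its version, summary method and genome build were not stated. That the scale is log2 was read from the range of values. Array medians differed (5.67 and 5.93 with ormeloxifene, 5.72 and 5.84 with vehicle), so all probe sets were quantile normalized. Such scaling removes any shift shared by all genes.

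Of the probe sets, 18511 had exactly 1 symbol, 575 several and 17599 none; 18394 were matched by gene number to GRCr8 for names. For genes with several probe sets the one of highest mean was kept. Differences came from limma 3.58.1 (R 4.3.3; lmFit, eBayes, 2-sided), adjusted by Benjamini-Hochberg over 18166 genes at a threshold of 0.05; 2 residual degrees of freedom became 7.55 after moderation. The script was tested on simulated data. Signal over background was not used here.

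Members and lists were chosen with earlier results of these data known. Named genes were the 10 members, Mip and Aqp12a, flanking genes of Aqp2, Aqp5 and Aqp6, of Aqp3 and Aqp7 and of Aqp8, the 5 nearest profiles of the 2 members of smallest p, key transporters with any list gene at an unadjusted p under 0.05, Esr1 and Pgr; markers and other genes given beside them were chosen after their values were seen. Of the remaining marker lists, stroma was higher in 4 of 8 genes measured, skeletal muscle in 2 of 4, oviduct in 3 of 4, ovary in 3 of 4 and smooth muscle in 6 of 6. Smooth muscle had a median of 0.28, with 0.22 within number 1 and 0.24 within number 2. Its means were 10.33 and 10.16 with ormeloxifene and 10.10 and 9.85 with vehicle, and 0 of its genes had an unadjusted p under 0.05 by limma. Its part in the aquaporin differences was not tested. Hoxa11 was not analysed here.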

Additional observations from a re-analysis of the deposited data

How the results depend on the processing

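The 10 aquaporin differences were recomputed under up to 12 alternatives each, 119 values in all, of which 115 kept their sign and their side of the adjusted threshold. Aqp8 alone of the 10 passed it, with deposited values and the replicate number as a block (1.64, adjusted p = 3.12e-06). With 1 array left out, Aqp1 ran from -0.02 to 0.12 and Aqp7 from -0.13 to 0.36, with -0.07 without vehicle replicate 1. Genes past the adjusted threshold by limma, 0 as reported, numbered 1 with arrays centred on their medians, 1 with probe sets averaged, 3 with a variance trend, 4 without the dimmest 20% of genes, 5 with the replicate block, 84 with that block on deposited values, and 0 to 3 with 1 array left out. At an unadjusted p under 0.05 by limma stood 2 aquaporins, or 1 with all probe sets tested (Aqp5 at 0.0670). There were 3, with Aqp9 joining, without the dimmest genes (0.0429) and with the trend (0.0416). The same 3 stood there with the replicate block (Aqp9 at 0.0164) and with that block on deposited values (0.0155). For the genes of the 3 related lists that count was 1 as reported, 0 on deposited values, 2 without the dimmest genes, 3 with the trend, 6 with the replicate block, 5 with that block on deposited values, and 0 to 8 with 1 array left out. Counts added after the data were seen follow. An absolute difference of at least 0.5 held for 3 aquaporins, or 2 with arrays centred on their medians. The members could change: without vehicle replicate 1 Aqp9 fell below that size, at 0.44, and Aqp11 passed it, at -0.64. Groups did not overlap in 7 aquaporins, or 4 on deposited values. Of the other named genes these changed sign with 1 array left out: Aqp12a (-0.10 to 0.40), Faim2 (-0.18 to 0.27, with -0.08 without ormeloxifene replicate 1), Racgap1 (-0.38 to 0.19), Nfx1 (-0.13 to 0.32), Esr1 (-0.44 to 0.04), Sgk1 (-0.21 to 0.02), Avpr2 (-0.21 to 0.65) and Gk (-0.18 to 0.41). Mip, at -0.00 as reported, ran from -0.20 without ormeloxifene replicate 2 to 0.20 without ormeloxifene replicate 1. The causes were not tested. The labels do not say that the numbers pair the samples, and 2 pairs cannot settle it; the replicate block left 1 residual degree of freedom and 8.15 after moderation. Where 1 array is left out, the lone array of its group is taken to vary like the other group. Having 4 arrays limits the precision throughout.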
